A study of Homo sapiens with 3 samples.

Results

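The enzymes and carriers of the urea cycle and of arginine and ornithine metabolism were followed in 3 RNA-seq libraries of liver cancer cells. The 10 genes were picked by symbol from the 25270 gene symbols that each library lists: CPS1, OTC, ASS1, ASL, ARG1, ARG2, NAGS, SLC25A13, SLC25A15 and ODC1. All 10 were found. The study describes HepG2 as a human hepatocellular carcinoma line. One library came from parental HepG2 cells without treatment, one from HepG2/metR cells, which are the HepG2 cells that survived exposure to metformin, an inhibitor of respiratory complex I, for more than 5 months, and one from HepG2/metR cells exposed for 24 h to 40 mM oxamate, which blocks lactate dehydrogenase. The study compared them to find genes that respond to lactate, which HepG2/metR cells produce in excess and oxamate lowers. The study gives a serum-containing medium for HepG2 cells. Its methods do not say whether metformin was present when RNA of HepG2/metR cells was taken. HepG2/metR is a single selected population. With 1 library per condition, no difference below has a replicate check, and no test or p-value is given.

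The urea cycle converts ammonia to urea and is the task of the hepatocyte. In mitochondria, CPS1 joins ammonia and bicarbonate into carbamoyl phosphate, using N-acetylglutamate made by NAGS as its activator, and OTC transfers that group to ornithine to give citrulline. In the cytosol, ASS1 joins citrulline to aspartate, ASL splits the product into arginine and fumarate, and ARG1 cuts arginine into urea and ornithine. SLC25A15 exchanges ornithine for citrulline across the inner mitochondrial membrane, and SLC25A13, also called citrin, exports aspartate for the ASS1 reaction. ARG2 is the mitochondrial arginase, found in many tissues outside the liver, and ODC1 turns ornithine into putrescine, the entry to the polyamines that dividing cells need.

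Stretches near the starts of 5 members are shown because their promoter windows held 1 of 2 motifs picked for display out of 9 that were searched on both strands, a choice made after the matches were seen. RefSeq windows of 250 bases before and 50 after an annotated start (GRCh38.p14) matched 10 of 10 members, in 14 windows. The E-box CACGTG, which reads the same on both strands and is the site class of MYC and related factors, was present in 4 of the 14 windows, belonging to CPS1, ASS1, SLC25A13 and ODC1, and in 7.26% of all 35116 windows. The palindrome TGACGTCA, the full cAMP response element, was present in 1 member window, that of ARG2, and in 1.85% of all windows. Of the other motifs, the TATA box TATAAA was in 2 member windows (OTC and ARG1) and 11.5% of all windows, GGGCGG in 9 and 45.0%, CCAAT in 4 and 34.6%, TGACGT, which lies within the full element, in 2 and 7.98%, ATTGGCC, which overlaps the reverse complement of CCAAT, in 1 and 5.36%, CAAAGTCC in 1 (OTC) and 1.20%, and TTGCGCAA in 0 and 0.151%. These matches describe the letters only, and no binding was measured. The stretches around them follow 5′ to 3′ on the gene's strand, with the motif in capitals. The ASS1 stretch is chr9:130444850-130444935 (plus strand), the ODC1 stretch chr2:10447988-10448081 (minus strand), the SLC25A13 stretch chr7:96322207-96322292 (minus strand), the CPS1 stretch chr2:210519632-210519717 (plus strand), before an alternative CPS1 start, and the ARG2 stretch chr14:67619708-67619795 (plus strand).
ASS1: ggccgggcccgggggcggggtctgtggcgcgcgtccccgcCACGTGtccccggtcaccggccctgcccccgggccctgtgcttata
ODC1: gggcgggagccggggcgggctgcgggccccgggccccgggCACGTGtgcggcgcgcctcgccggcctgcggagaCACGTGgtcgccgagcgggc
SLC25A13: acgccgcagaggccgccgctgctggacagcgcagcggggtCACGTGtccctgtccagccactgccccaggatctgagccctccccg
CPS1: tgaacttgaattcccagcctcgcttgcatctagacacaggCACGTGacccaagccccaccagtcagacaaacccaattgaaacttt
ARG2: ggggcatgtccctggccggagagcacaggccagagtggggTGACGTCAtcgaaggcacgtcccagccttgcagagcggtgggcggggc
The ASS1 match began 71 bases, the SLC25A13 match 154 bases and the CPS1 match 46 bases before the annotated start. ODC1 held 2 matches in 1 window, which began 29 bases before and 5 bases after the annotated start. ARG2 held 2 copies of its motif, of which the one 172 bases before the start is shown.

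The deposited values have the form of log2(FPKM + 1), and back-transformed values are called FPKM (fragments normalised to transcript length and library size), a level per length that can be compared between genes. Changes are differences of the deposited values, written as log2 changes, a scale that understates the change of low genes. Levels given as 3 values stand in the order parental HepG2, HepG2/metR and HepG2/metR with oxamate. A gene was called lower or higher past 2-fold in HepG2/metR against parental cells and past 1.5-fold with oxamate, the folds of the study's methods. Genes with a mean of at least 1 FPKM over the libraries were kept, 12210 in all. The files give no read counts, so the depth is unknown. Between 11356 and 11649 genes reached 1 FPKM in a library, and the summed FPKM was 562382, 534646 and 473773. The 15 hepatocyte markers examined went against the liver label in HepG2/metR cells. Their summed level was 38051, 14.3 and 11.8 FPKM, all 15 were past 2-fold lower in HepG2/metR cells, and APOA1, TTR, FGA, FGG and RBP4 were listed at 0 there. Of 11 mesenchymal markers, 8 of them kept, 5 were past 2-fold higher and 1 lower in HepG2/metR. Over all genes kept, 16.6% were higher and 17.6% lower. The intermediate filament gene VIM was among the higher ones, at 1.23, 1576 and 1140 FPKM. The lower one was FN1, at 1503, 45.7 and 93.7 FPKM, while CDH2 stayed within 2-fold at 35.2, 33.4 and 36.1. Of 5 epithelial markers 3 were lower, while KRT8 (1080, 897 and 664 FPKM) and KRT18 (605, 787 and 606) were within 2-fold. The 5 markers of blood cells summed to at most 2.30 FPKM in any library. The effect of metformin selection and any other difference between the parental and the selected cultures cannot be told apart.

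Parental HepG2 cells expressed the pathway unevenly. ODC1 was the highest member at 231 FPKM, followed by ASS1 at 37.5, ASL at 36.5, SLC25A13 at 34.4, SLC25A15 at 22.1, ARG2 at 20.7 and CPS1 at 11.6 FPKM. NAGS was listed at 1.82, ARG1 at 1.34 and OTC at 0.229 FPKM. The enzyme that makes citrulline and the liver arginase were thus at the bottom of the order already before selection, and ARG2 was the higher arginase. Without replicates the spread of each level is unknown, so the order of close neighbours such as ASS1, ASL and SLC25A13 cannot be given.

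**Figure D1:**
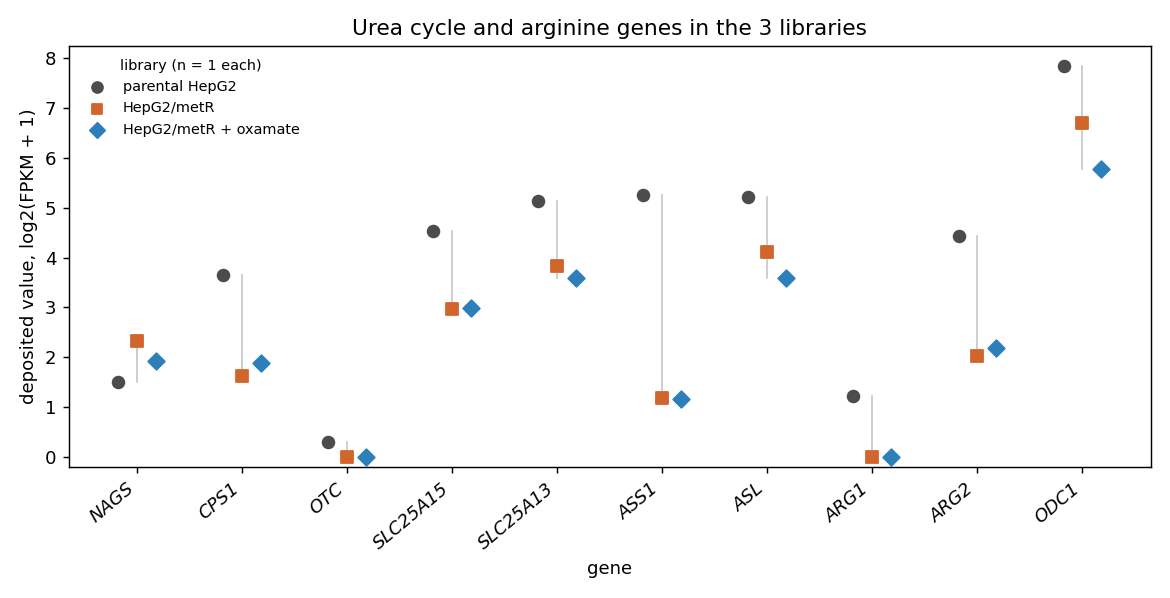
Deposited value, log2(FPKM + 1), of each of the 10 genes (horizontal axis, in pathway order) in the 3 libraries, 1 point per library and gene, with a grey line over the range of the points. ASS1 stands at 37.5 FPKM in parental cells and near 1.2 FPKM in both HepG2/metR libraries, while NAGS is the member whose HepG2/metR point lies above its parental point.

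In HepG2/metR cells the pathway was lower at nearly every measured step. Of the 8 members kept, 7 were past 2-fold lower than in parental cells and none was past 2-fold higher, where 17.6% of the 12210 genes were lower and 16.6% higher by that measure. The median log2 change of the 8 members was -1.44, against 0.015 over all genes kept. OTC and ARG1 were under the filter. The hepatocyte markers were lower in the same library, and their part in the result was not tested. In bulk RNA, fewer cells of a type and less RNA per cell cannot be told apart.

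The argininosuccinate steps, which make arginine from citrulline, parted from each other. ASS1 was listed at 37.5, 1.27 and 1.24 FPKM, a log2 change of -4.08 in HepG2/metR and the lowest of the members. It is the member that passed a 10-fold fall, which 3.75% of all genes kept did. ASL was listed at 36.5, 16.4 and 11.1 FPKM, a log2 change of -1.11, so that ASL, about level with ASS1 in parental cells, had 12.9 times the FPKM of ASS1 in HepG2/metR cells. RefSeq names 14 pseudogenes of ASS1, none of them listed by that name in the files, so reads shared with these copies make the ASS1 level uncertain.

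The mitochondrial entry was lower as well. CPS1 was listed at 11.6, 2.08 and 2.67 FPKM, a log2 change of -2.03. Both HepG2/metR libraries lay well under the parental one. NAGS, whose product activates CPS1, was listed at 1.82, 4.02 and 2.81 FPKM. Its log2 change in HepG2/metR was 0.83, under the 2-fold threshold on the log2(FPKM + 1) scale, although the plain ratio of FPKM was 2.20, and it was the member with a higher value in HepG2/metR. OTC, the next enzyme, was listed at 0.229 FPKM in parental cells and at 0 in both HepG2/metR libraries.

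The carriers that link the compartments moved the same way. SLC25A15 was listed at 22.1, 6.87 and 6.95 FPKM, a log2 change of -1.55 in HepG2/metR. SLC25A13 was listed at 34.4, 13.2 and 11.1 FPKM, a change of -1.32. The related aspartate and glutamate carrier of non-liver tissues, SLC25A12 or aralar, was listed at 5.12, 6.56 and 4.72 FPKM, within the 2-fold threshold. The ratio of SLC25A13 to SLC25A12 was 6.72 in parental cells and 2.01 in HepG2/metR cells. RefSeq names 5 pseudogenes of SLC25A15, none of them listed by that name, and its level is uncertain in the same way.

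Both arginases had lower values in HepG2/metR. ARG1 was listed at 1.34 FPKM in parental cells and at 0 in both HepG2/metR libraries, and no fold is given against 0. ARG2 was listed at 20.7, 3.10 and 3.54 FPKM, a log2 change of -2.41 in HepG2/metR, the second lowest among the members kept. Part of ARG2 overlaps VTI1B on the opposite strand, and VTI1B was listed at 39.3, 29.3 and 24.0 FPKM. ARG1 overlaps MED23 in the same way, and MED23 was listed at 10.3, 6.28 and 8.88 FPKM. The strand setting of the counting is not given in the sources used here, so reads of these overlaps cannot be assigned. ODC1 was the highest member in each library, at 231, 103 and 54.2 FPKM, with a log2 change of -1.16 in HepG2/metR.

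The margins differed between members. ASL and ODC1 passed the 2-fold threshold by little, at -1.11 and -1.16, whereas CPS1, ARG2 and ASS1 were at -2.03 or lower. With upper-quartile scaling, under which the median change of all genes was 0.15, ASL stood at -0.96 and no longer passed. Set against parental cells, the oxamate-treated HepG2/metR library also had 7 of the 8 members past 2-fold lower, and 17.6% of all genes were. That comparison uses the same parental library and treated cells, so it is no replicate check.

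**Figure D2:**
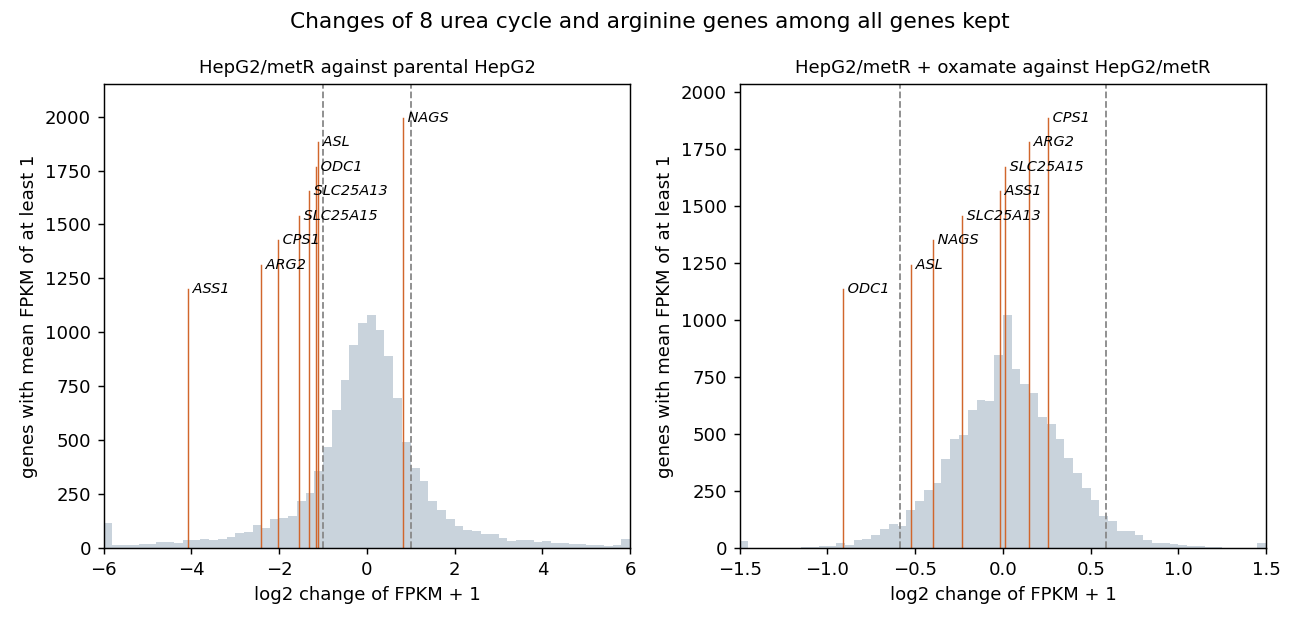
Distribution of log2 changes over the 12210 genes kept (grey bars, number of genes on the vertical axis; genes beyond an axis end are counted in its last bar), with the 8 members kept as orange lines whose heights only separate the names, for HepG2/metR against parental HepG2 (left) and for oxamate in HepG2/metR (right). Dashed lines mark 2-fold on the left and 1.5-fold on the right; 7 members lie beyond the left line in the first comparison, and ODC1 alone in the second.

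With oxamate, ODC1 was the member past 1.5-fold. Its level went from 103 FPKM in HepG2/metR to 54.2 FPKM with oxamate, a log2 change of -0.91, and 91 of the 12210 genes kept had a lower change. Of the 8 members kept, 1 was lower and none higher, where 3.82% of all genes were lower and 4.30% higher. ODC1 is a highly expressed gene, and calls in this comparison moved with level: among genes with a mean of 50 FPKM or more, 10.7% were lower and 0.794% higher, with a median log2 change of -0.24. When totals were made equal between libraries, ODC1 was at -0.74, which is -0.90 relative to the median of all genes under that scaling. No member passed 2-fold with oxamate.

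The other members stayed within 1.5-fold with oxamate. ASL came closest, at -0.52 on the log2 scale, where 1.5-fold is 0.58. NAGS was at -0.40 and SLC25A13 at -0.23. ASS1, SLC25A15, ARG2 and CPS1 were at -0.02, 0.01, 0.15 and 0.25, and OTC and ARG1 were listed at 0 in both libraries. The median of the 8 members kept was -0.13, against 0.021 over all genes kept. The members most reduced in HepG2/metR, ASS1, ARG2 and CPS1, thus had values near those of untreated HepG2/metR cells after 24 h of oxamate. Both comparisons use the HepG2/metR library, and an error in that library would move a gene in each.

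The surroundings of the pathway were described with 80 genes in 6 lists, all of which were found, 66 of them with a mean of at least 1 FPKM. In HepG2/metR cells 23 of the 66 (34.8%) were past 2-fold lower, against 17.6% of all genes kept, and 7 (10.6%) past 2-fold higher, against 16.6%. With oxamate 7 of the 66 (10.6%) were past 1.5-fold lower, against 3.82% of all genes, and 0 higher, against 4.30%. That last split depended on the scaling. It was 5 lower and 0 higher with upper-quartile scaling, under which SRM and GOT1 no longer passed, and 1 lower and 3 higher with equal totals.

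Several factors known to drive liver genes of this pathway were lower in HepG2/metR cells. Of 10 regulators, a list that also holds MYC and ATF4, 6 were past 2-fold lower and 1 higher, where 17.6% of all genes were lower and 16.6% higher. HNF4A, the liver nuclear receptor, was listed at 68.7, 0.0156 and 0.0153 FPKM. CEBPA, a factor known to act on the CPS1 and ARG1 genes, was listed at 74.3, 0.558 and 0.723 FPKM. FOXA1, FOXA2 and PPARGC1A were also past 2-fold lower. NR3C1, the glucocorticoid receptor, was the higher one, at 7.20, 16.1 and 19.4 FPKM. The part of these factors in the levels of the members was not tested.

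Of the 6 genes kept for carbamoyl phosphate use and mitochondrial cofactors, 1 was past 2-fold lower and 1 higher in HepG2/metR, each a share of 16.7% beside 17.6% and 16.6% of all genes, and 4 were within 2-fold. CA5A, the liver mitochondrial carbonic anhydrase that supplies bicarbonate to CPS1, was listed at 12.7 FPKM in parental cells and at 0 in both HepG2/metR libraries. CAD, which holds the other carbamoyl phosphate synthetase of the cell and starts pyrimidine synthesis, was listed at 13.2, 28.7 and 24.7 FPKM, a log2 change of 1.07 in HepG2/metR. The ratio of CAD to CPS1 was 1.14 in parental cells, 13.8 in HepG2/metR and 9.26 with oxamate. The related carbonic anhydrase gene CA5B, under the filter, was listed at 0.482, 1.22 and 1.05 FPKM.

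The enzymes that bring ammonia, glutamate and ornithine into or out of the cycle were mixed. Of 15 kept, 5 (33.3%) were past 2-fold lower in HepG2/metR, against 17.6% of all genes, and 1 (6.67%) higher, against 16.6%. Their median was -0.54, against 0.015 over all genes. GLUL, glutamine synthetase and the second route of ammonia removal in liver, was listed at 85.5, 3.13 and 3.32 FPKM. GLS2, the liver glutaminase, was listed at 4.59, 0 and 0.0317 FPKM. GLUD1, glutamate dehydrogenase, was listed at 167, 38.4 and 31.2 FPKM. The proline-side gene ALDH4A1 and the hydroxyproline dehydrogenase gene PRODH2 were at -3.15 and -4.74 in HepG2/metR, and ASNS, asparagine synthetase, at 1.38. PRODH, proline dehydrogenase, was under the filter. OAT, which moves ornithine towards proline and glutamate, was listed at 52.6, 75.5 and 80.0 FPKM, within 2-fold. OAT therefore exceeded ARG2 by 2.54 times in parental cells and by 24.4 times in HepG2/metR cells. With oxamate, GOT1 (-0.59), the cytosolic aspartate aminotransferase, and PYCRL (-0.64), a proline synthesis enzyme, were past 1.5-fold.

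Arginine uptake and the other uses of arginine were described in a further pair of lists. SLC7A2, a cationic amino acid transporter abundant in liver, was listed at 17.5, 4.03 and 6.03 FPKM, a log2 change of -1.88 in HepG2/metR. SLC7A9 was listed at 4.65, 0 and 0.158 FPKM. SLC7A1, the widely expressed arginine transporter, was listed at 22.5, 43.0 and 29.9 FPKM, a change of 0.90, within 2-fold. SLC7A2 and SLC7A9 were the 2 of 9 transporters kept that were lower, a share of 22.2% that is near the 17.6% of all genes, and 0 were higher. Of the 5 genes kept for nitric oxide, creatine and agmatine, 3 were lower and 1 higher, with the same shares of 17.6% and 16.6% over all genes. AGMAT, agmatinase, was listed at 75.7, 0.962 and 1.02 FPKM, with the lowest log2 change in that list, -5.29. The endothelial nitric oxide synthase gene NOS3 was listed at 9.16, 0.579 and 0.446 FPKM, and GAMT, the last enzyme of creatine synthesis, at 44.6, 14.4 and 10.7. DDAH2, which breaks down methylated arginine, was listed at 11.9, 46.5 and 55.4 FPKM. None of the genes kept in either list passed 1.5-fold with oxamate.

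The genes of polyamine synthesis, control, transport and turnover were mixed in HepG2/metR. Of 21 kept, 6 (28.6%) were lower, against 17.6% of all genes, 3 (14.3%) higher, against 16.6%, and 12 were within 2-fold, and the median was 0.31. Spermine synthase, SMS, was listed at 58.4, 348 and 280.4 FPKM, a log2 change of 2.55. Spermidine synthase, SRM, was listed at 64.6, 66.0 and 43.3 FPKM, so that the ratio of SMS to SRM was 0.904 in parental and 5.27 in HepG2/metR cells. AMD1, which supplies the aminopropyl donor for both, was listed at 71.3, 33.2 and 29.4 FPKM.

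The breakdown and salvage genes of that list were also mixed in HepG2/metR. SAT1, the acetyltransferase that starts polyamine breakdown, was listed at 406, 41.7 and 39.7 FPKM, a log2 change of -3.26, and the spermine oxidase SMOX at 25.7, 11.0 and 7.44. PAOX, which oxidises the acetylated products, was listed at 0.110, 1.77 and 2.15 FPKM and was one of the 3 higher genes, with SMS and the antizyme gene OAZ2 (24.4, 59.0 and 52.4). MTAP, which recycles the by-product of spermidine and spermine synthesis, was listed at 15.3 FPKM in parental cells and at 0.00714 and 0.00697 FPKM in the HepG2/metR libraries. ADI1, a later enzyme of the same salvage route, was listed at 115, 30.5 and 33.2 FPKM, while the salvage genes MRI1 (9.38, 14.0 and 13.8), APIP (24.5, 30.8 and 29.2) and ENOPH1 (41.2, 32.9 and 20.4) were within 2-fold in HepG2/metR. DOHH, the second enzyme of hypusine synthesis on EIF5A, was listed at 15.7, 6.98 and 6.95.

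**Figure D3:**
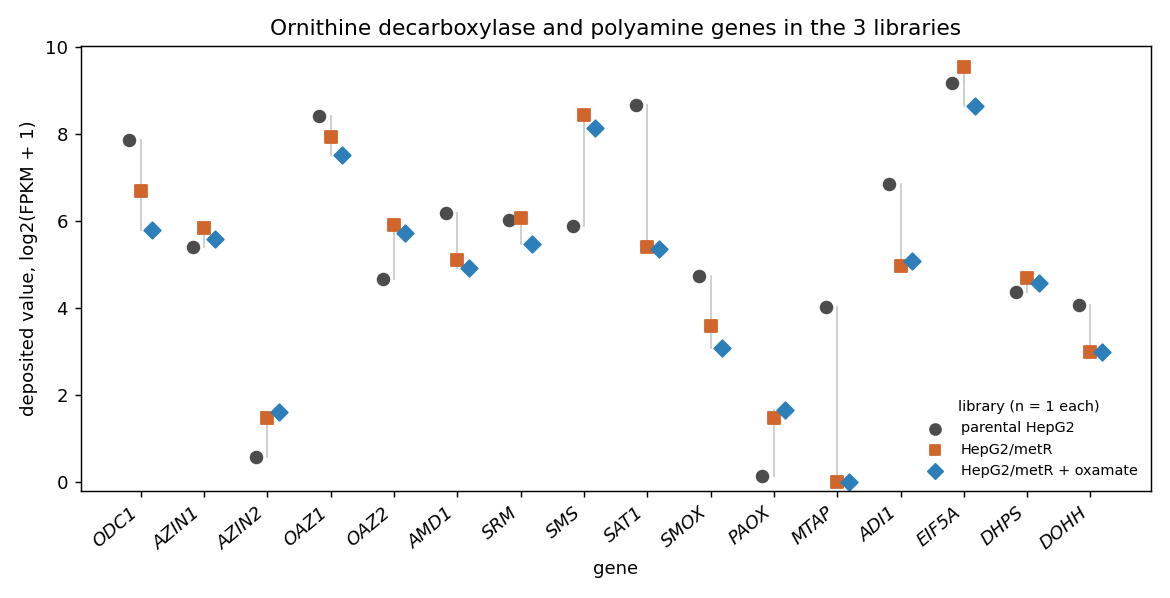
Deposited value, log2(FPKM + 1), of ODC1 and 15 polyamine genes (horizontal axis) in the 3 libraries, 1 point per library and gene, with a grey line over the range. SMS is higher and SAT1 and MTAP lower in both HepG2/metR libraries than in parental cells. ODC1 and EIF5A are among several plotted genes whose lowest point is with oxamate.

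With oxamate, 3 of the 21 polyamine genes (14.3%) were lower, against 3.82% of all genes, and 0 higher. EIF5A, the translation factor that carries the polyamine-derived residue hypusine, was listed at 748 FPKM in HepG2/metR and 400 with oxamate, a log2 change of -0.90, SRM was at -0.60 and ENOPH1, of methionine salvage, at -0.67. ODC1, SRM and EIF5A each had a mean of 50 FPKM or more, the range in which 10.7% of all genes were lower. The antizyme gene OAZ1, whose product targets ODC1 for breakdown, was at -0.42, and the ratio of ODC1 to OAZ1 was 0.682 in parental cells, 0.419 in HepG2/metR and 0.297 with oxamate. MYC, a known activator of ODC1, was listed at 79.3, 74.7 and 46.7 FPKM. The MYC change was -0.09 in HepG2/metR and -0.67 with oxamate. ATF4 was listed at 279, 290 and 180 FPKM, a change of -0.69 with oxamate. Of 5 proliferation markers, PCNA was past 1.5-fold lower with oxamate, and 3 of 8 housekeeping genes were, namely GAPDH, PGK1 and PPIA. The part of any of these in the ODC1 value was not tested. With equal totals, EIF5A was the 1 of the 7 list genes that still passed as lower, and the 3 higher ones were DDAH1, GLUD2 and SLC7A2.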

How the data were processed

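Total RNA of 3 libraries, 1 per condition, was sequenced on an Illumina NextSeq instrument. The submitters' processing notes name STAR 2.5.1b, FastQC 0.11.5, Cufflinks 2.2.1 and hg19. The annotation, strand setting and filters are not given in the sources used here, and no gene coordinates on hg19 are printed. The authors deposited 1 log2 value per gene symbol. The unit was read from the values: 2 to the power of the value, minus 1, had at most 6 significant digits for at least 99.5% of values above 1, which is the form of log2(FPKM + 1).

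Values were used as deposited. Log2 changes are differences of them (pseudocount 1). Genes were kept when their FPKM averaged at least 1 over the libraries. Depth is unknown, so no interval is given. The members and lists were chosen with earlier results of these data known. The genes named are the members, list genes past the fold with a mean FPKM of at least 1, list genes that state a pathway step, and the closest gene to each member. Some list genes are counted in their lists and not reported here by name. AZIN2 was matched by its older symbol ADC. Of 9 motifs searched in the promoter windows, the 2 displayed were chosen after their matches were seen. Promoter windows are from RefSeq (GRCh38.p14). The calculation was tested on simulated data without a pseudocount, so the pseudocount of 1 used here was not part of that test. Alternatives were other pseudocounts, filters, scalings and folds, and, added after seeing the data, the oxamate-treated library against parental cells. Python 3.11, numpy 2.4.6, pandas 2.3.3 and matplotlib 3.10.9 were used.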

Additional observations from a re-analysis of the deposited data

How the results depend on the processing

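The count of 7 members past 2-fold in HepG2/metR, in either direction, was between 6 and 8 under every alternative run. The alternatives were other pseudocounts (0.1, none), other filters (none, a mean of 5 FPKM), 3 scalings (median-of-ratios, upper-quartile, equal totals), a 1.5-fold threshold, and the oxamate-treated library in place of HepG2/metR. With either other pseudocount or the 1.5-fold threshold, the 8 were 7 lower and 1 higher, NAGS. Without a filter they were 8 lower, ARG1 among them. With oxamate, the count of 1 member past 1.5-fold went to 0 at a 2-fold threshold, since ODC1 stood at -0.91, and was 1 under the other alternatives. Of 96 single-gene values under the alternatives, 92 kept their side of the threshold. NAGS was past 2-fold with a pseudocount of 0.1 (1.10) or none (1.14), because the pseudocount of 1 shrinks low values. ASL was at -0.96 with upper-quartile scaling, and OTC, under the filter and at 0 in HepG2/metR, went from -0.30 to -1.72 with a pseudocount of 0.1, a value set by the pseudocount. The list genes past 1.5-fold with oxamate were 7 lower and 0 higher as deposited, 5 and 0 with upper-quartile scaling, and 1 lower and 3 higher with equal totals. Over all genes kept, the split with oxamate was 466 lower and 525 higher as deposited, 374 and 661 with upper-quartile scaling, and 192 and 1184 with equal totals, which moved the median of all genes to 0.17. No paired analysis was possible because each condition has 1 library, and no replicate could be left out.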

Other observations

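The gene with the 3 deposited values closest to those of a member, by Euclidean distance on the log2 scale over the 3 libraries, was F10 for ASS1 (distance 0.13; 36.3, 1.18 and 1.41 FPKM), ZNRF3 for ARG2 (0.091), MOCOS for CPS1 (0.13), IL4R for SLC25A15 (0.12), TMEM177 for SLC25A13 (0.11), PANK2 for ASL (0.15) and GUSBP4 for NAGS (0.15). F10 encodes the liver-made clotting factor X. ODC1 had no gene as close, with MGST1 nearest at 0.41 (243, 79.2 and 60.3 FPKM). With 3 libraries, such closeness is a description of levels and says nothing of shared control.

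Urea itself, arginine and ammonia were not measured here. The urea transporter genes SLC14A1 and SLC14A2 were listed at 0 in all 3 libraries, and AQP9, a liver channel that passes urea, at 0.0145 FPKM in parental cells and at 0 in both HepG2/metR libraries. The mitochondrial deacylase SIRT5, which acts on CPS1, was listed at 7.16, 3.61 and 4.39 FPKM, and SIRT3 at 5.10, 5.06 and 4.42. Both were within 2-fold in HepG2/metR and within 1.5-fold with oxamate.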
